A study of Homo sapiens with 48 samples.

Results

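The E2F and DP genes were followed in AMO1, a human multiple myeloma line derived from a plasmacytoma, after inducible knockdown of IRE1 or of XBP1. The members were the 10 rows of the deposited count table named E2F1 to E2F8, TFDP1 and TFDP2, of 58302 rows in all, and all 10 passed the filter on low counts in every comparison. IRE1 (gene ERN1) is a sensor of misfolded protein in the endoplasmic reticulum, and XBP1 is the transcription factor whose mRNA it splices. Both shIRE1 clones (clone 1 and clone 3) carried the shRNAs against IRE1 and both shXBP1 clones (clone 1 and clone 18) those against XBP1, in each case a set of 3 shRNAs under control of doxycycline (Dox). Each clone was sampled untreated (0 h) and after 24, 48 and 72 h of Dox at 0.2 µg/ml, in 3 replicate cultures, which gave 16 groups and 48 libraries of mRNA. Every group was therefore 1 clone in culture, and control libraries without a targeting shRNA were no part of the comparisons, so that within 1 clone the effects of Dox, of time in culture and of the knockdown cannot be told apart.

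E2F proteins bind DNA as partners of a DP protein and set the expression of genes for entry into S phase and for DNA replication. E2F1, E2F2 and E2F3 are the activators, held in check by the retinoblastoma protein RB1 until cyclin-dependent kinases phosphorylate it. E2F4 and E2F5 act mainly as repressors with the pocket proteins RBL1 (p107) and RBL2 (p130), E2F6 represses within a Polycomb complex and has no pocket-protein site, and E2F7 and E2F8 are atypical repressors that bind DNA without a DP partner and are themselves E2F targets. TFDP1 and TFDP2 encode the DP partners. Myeloma cells are a dividing form of a cell, the plasma cell, that normally has left the cell cycle.

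Library totals ran from 19177855 to 40767202 counts (median 30776246.5), and 1 count was worth 0.0245 to 0.0521 CPM (counts scaled to library size with TMM factors). The 10 members held 14343 to 33578 counts in a library, and the lowest single value was 170 counts, for E2F6. Of 10 plasma cell markers, 9 had a mean of at least 1 CPM, the summed myeloid markers stayed between 0.176 and 0.976 CPM, the stromal ones between 0.308 and 2.80 CPM, the T cell ones between 6.37 and 21.3 CPM, and of the B cell markers 1 (CIITA) reached a mean of 1 CPM. The B cell, T cell and plasma cell sums also changed after Dox in the shIRE1 clones, though not all with the same time course as the members. The 6 B cell markers summed to 35.9 to 57.9 CPM at 0 h, 65.6 to 77.3 CPM at 24 h and 177 to 214 CPM in the groups labelled 48 and 72 h. The 6 T cell markers summed to 7.43 to 10.6 CPM, 17.3 to 19.9 CPM and 17.8 to 21.3 CPM at these times. The sum of the 10 plasma cell markers was 14239 to 19048 CPM, 11050 to 12574 CPM and 7495 to 10118 CPM. In the shXBP1 clones the plasma cell sum fell as well. It was 17617 to 20969 CPM at 0 h and 13068 to 14106 CPM at 72 h in clone 1. In clone 18, as labelled, it was 18377 to 18732 CPM and 13121 to 15302 CPM. Over all shXBP1 libraries the B cell sum ran from 37.3 to 61.1 CPM and the T cell sum from 6.37 to 17.1 CPM. The part of these marker sums in the results that follow was not tested. ERN1, the target of shIRE1, was at 153, 149.8 and 154 CPM at 0 h and 127, 125 and 129 CPM at 24 h in shIRE1 clone 1 (log2 fold change -0.27 ± 0.040), and at 421, 451 and 441 CPM and 144, 145 and 146 CPM in clone 3 (log2 fold change -1.60 ± 0.048). Clone 1 before Dox (149.8 to 154 CPM) thus already lay near the level of clone 3 at 24 h (144 to 146 CPM). The clones lay closer to each other in ERN1 mRNA after Dox than before it. XBP1 fell after shXBP1, from 159 to 178 CPM at 0 h to 42.5 to 64.7 CPM at 24 h over both clones. IRF4, a plasma cell transcription factor, fell from 1269.8 to 1448 CPM at 0 h to 929 to 1034 CPM at 24 h over both shIRE1 clones.

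At 7 libraries genes that part the clones went against the label, and this bears on values at 48 and 72 h that follow. Over the 24 shIRE1 libraries as labelled, 0 genes separated clone 1 from clone 3 by more than 0.5 on the log2 scale in every library, whereas 18 genes did so once the 3 libraries labelled clone 1, 72 h and the 3 labelled clone 3, 48 h were set aside, against 0 to 3 genes for every other pair of groups set aside. On a scale where clone 3 is 0 and clone 1 is 1, the libraries labelled clone 1, 72 h lay at -0.0073 to 0.0208 (0 of 18 markers nearer to clone 1), and those labelled clone 3, 48 h at 0.982 to 1.06 (17 to 18 of 18). The laminin gene LAMB4, picked as an example after its values were seen, was at 1.16 to 1.76 CPM in clone 1 at 0 h, 34.2 to 46.4 CPM in clone 1 at 24 and 48 h and 52.6 to 59.0 CPM in the libraries labelled clone 3, 48 h. It had 0 counts in those labelled clone 1, 72 h and in clone 3 at 0, 24 and 72 h. Likewise, shXBP1 clone 18, 72 h replicate 3 lay nearer to shXBP1 clone 1 at 622 of 626 markers, against 4 of 626 for each of the other libraries of that group. Over all genes that passed the filter, the 6 shIRE1 libraries correlated best, of the groups other than their own, with a group of the clone on their label. Those labelled clone 1, 72 h did so with clone 1, 48 h (mean r 0.992 to 0.993) and those labelled clone 3, 48 h with clone 3, 72 h (0.991 to 0.993), while the shXBP1 library correlated best with shXBP1 clone 1, 72 h (0.994). The shIRE1 libraries of 24 h, however, all correlated best with the 24 h group of the other clone (0.990 to 0.992). This correlation therefore follows time after Dox as well as clone, and it cannot decide the clone of the 6 libraries. The doubt over them rests on the 18 markers. These markers were chosen after the data were seen, and how the libraries came to differ from their labels was not tested. Groups were kept as labelled, and values are also given without these 7 libraries. Both 24 h comparisons, the 48 h comparison of shIRE1 clone 1 and the 72 h comparison of shIRE1 clone 3 hold none of the libraries in doubt. The 18 markers were chosen on those same libraries, whose place on this scale is therefore no check of their labels. The fit of a clone still pools its spread over all 12 libraries, and with the doubted ones left out the members' calls in these shIRE1 comparisons were the same. The 72 h values of shIRE1 clone 1 and the 48 h values of clone 3 cannot be had without the libraries in doubt.

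Before Dox, the levels per kilobase of exon put TFDP1 and E2F4 at the top of the family and E2F5 and E2F6 at its foot in all 4 clones. In shIRE1 clone 1 the means in CPM per kilobase were 58.6 for TFDP1, 41.2 for E2F4, 37.4 for E2F2, 22.8 for E2F1, 17.1 for E2F3, 8.79 for E2F8, 5.54 for E2F7, 5.06 for TFDP2, 3.97 for E2F5 and 3.457 for E2F6 (n = 3). No neighbours in that order overlapped between libraries in this clone, while TFDP1 and E2F4 overlapped in shIRE1 clone 3 and in shXBP1 clone 18, E2F4 and E2F2 in shXBP1 clone 1, and E2F5 and E2F6 in shIRE1 clone 3. With the length of the canonical transcript in place of that of all exons, E2F5 ranked 6 of 10 in this clone (12.1 CPM per kilobase), above E2F8 and E2F7. The lengths used were those of all exons of a gene in GENCODE 44 joined (2690 bases for E2F1 to 11897 for TFDP2), and the lengths of the transcripts used in these cells were not measured.

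The clones were not alike before Dox. Between the shIRE1 clones, 6 of 10 members differed at 0 h (edgeR quasi-likelihood test, Benjamini-Hochberg adjusted p under 0.05, the threshold used throughout), beside 40.6% of the 18445 genes tested. TFDP1 was at 215, 229.9 and 213 CPM in clone 1 and 156, 143 and 139.7 CPM in clone 3, a log2 difference of 0.58 ± 0.042, and TFDP2 differed in the opposite direction, by -0.38 ± 0.055. E2F1, E2F3, E2F7 and E2F8 did not pass the test between these clones. Between the shXBP1 clones 6 of 10 members differed as well, beside 51.3% of all genes, led by E2F6 (log2 difference 0.76 ± 0.074) and E2F1 (0.47 ± 0.085), both higher in clone 1.

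All 3 activators fell within 24 h of Dox in both shIRE1 clones. E2F1, which drives S-phase genes and can also drive apoptosis genes, was at 60.4, 60.2 and 63.1 CPM at 0 h and 20.7, 22.5 and 23.2 CPM at 24 h in shIRE1 clone 1. In clone 3 it was at 69.7, 62.1 and 62.7 CPM at 0 h and 23.8, 24.8 and 25.01 CPM at 24 h. The groups did not overlap in either clone: the highest 24 h library was at 23.2 CPM in clone 1 and 25.01 CPM in clone 3, and the lowest 0 h library at 60.2 and 62.1 CPM. The log2 fold change was -1.47 ± 0.064 in clone 1 (SE; adjusted p = 4.53e-13) and -1.41 ± 0.065 in clone 3 (adjusted p = 2.99e-10). In bulk RNA, fewer cells of a kind that makes a transcript and less of it per cell cannot be told apart, here or in the results that follow.

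E2F2, the activator with the highest counts here, went from 207, 202 and 204 CPM to 69.5, 67.2 and 69.9 CPM in clone 1 and from 163, 169.8 and 160.05 CPM to 67.8, 80.4 and 73.7 CPM in clone 3 over the same 24 h. Its log2 fold changes were -1.57 ± 0.045 and -1.15 ± 0.061, and no library of 1 time lay in the range of the other. E2F3, which has an activating long form and a shorter form that this gene-level count cannot separate, changed less. It was at 92.98, 87.5 and 85.2 CPM and then 57.4, 53.4 and 53.3 CPM in clone 1, and at 81.9, 82.8 and 79.4 CPM and then 54.3, 51.2 and 51.6 CPM in clone 3. These were falls to 61.7% and 64.1% of the 0 h level, against 33.7% and 44.9% for E2F2.

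Both atypical E2Fs fell as well. E2F7, a repressor of E2F1 and of replication genes, was at 35.5, 35.6 and 33.5 CPM at 0 h and 8.71, 7.86 and 8.00 CPM at 24 h in clone 1, and at 30.7, 33.96 and 29.1 CPM and 9.11, 8.14 and 8.70 CPM in clone 3. Its log2 fold changes of -2.09 ± 0.069 and -1.86 ± 0.087 were the largest in size of the 10 members in both clones at 24 h. E2F8, its closest relative, was at 38.3, 36.1 and 34.5 CPM and then 17.2, 15.02 and 16.001 CPM in clone 1, and at 35.3, 40.3 and 38.4 CPM and then 15.5, 16.1 and 15.7 CPM in clone 3 (log2 fold changes -1.18 ± 0.063 and -1.27 ± 0.073). Exons of E2F8 share 7 bases with an antisense transcript, CSRP3-AS1, in GENCODE 44.

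Promoters from the RefSeq promoter table (GRCh38.p14) were searched for all members but E2F5 and E2F8. The 250 bases before the start of transcription were searched on both strands for 4 forms of the E2F motif (TTCCCGC as the first form, TTGGCGC as the second, TTCGCGC as the third and TTGCCGC as the fourth). At least 1 form stands before E2F1, E2F2, E2F3, E2F7 and TFDP1, against 10.9% of the 35116 promoters searched. None stands in the second E2F3 promoter, in those of E2F4 and E2F6 or in any of 3 TFDP2 promoters. The promoters of the activators and of E2F7 are printed because those genes fell together after shIRE1, 5′ to 3′ on the strand of the gene, with the motif letters, read on either strand, in capitals. They lie at chr20:33686386-33686635 (E2F1, minus strand), chr1:23531234-23531483 (E2F2, minus), chr6:20401629-20401878 (the first of 2 E2F3 promoters, plus) and chr12:77065570-77065819 (E2F7, minus).
E2F1: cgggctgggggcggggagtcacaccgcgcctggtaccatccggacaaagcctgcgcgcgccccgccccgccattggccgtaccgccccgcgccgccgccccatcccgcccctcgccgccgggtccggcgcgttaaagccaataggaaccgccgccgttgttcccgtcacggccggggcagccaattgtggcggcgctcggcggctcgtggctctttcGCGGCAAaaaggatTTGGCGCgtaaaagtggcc
E2F2: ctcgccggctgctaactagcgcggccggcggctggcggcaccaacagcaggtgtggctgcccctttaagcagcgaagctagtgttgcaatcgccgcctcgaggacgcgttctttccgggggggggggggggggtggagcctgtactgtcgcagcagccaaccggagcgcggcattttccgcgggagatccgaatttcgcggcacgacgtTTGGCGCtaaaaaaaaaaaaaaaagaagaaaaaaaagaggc
E2F3: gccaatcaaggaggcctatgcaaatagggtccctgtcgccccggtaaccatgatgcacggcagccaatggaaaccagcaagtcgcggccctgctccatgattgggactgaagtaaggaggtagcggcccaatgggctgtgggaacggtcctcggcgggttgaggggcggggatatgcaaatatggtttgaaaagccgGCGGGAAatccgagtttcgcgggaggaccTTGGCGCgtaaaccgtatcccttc
E2F7: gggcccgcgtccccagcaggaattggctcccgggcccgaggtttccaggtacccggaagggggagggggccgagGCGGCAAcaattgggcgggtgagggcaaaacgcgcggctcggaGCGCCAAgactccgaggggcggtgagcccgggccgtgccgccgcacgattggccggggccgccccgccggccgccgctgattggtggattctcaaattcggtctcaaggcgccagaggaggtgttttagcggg
In E2F1 the matches ended 27 and 13 bases before the start, in E2F2 35 bases, in E2F3 47 and 18 bases, and in E2F7 170 and 127 bases before it. Among the E2F target genes described further on, 24 of 46 with a promoter searched (52.2%) hold a form of the motif in any promoter. Of all 27305 genes with a promoter searched, 12.97% do. A match describes these letters only, and binding was not measured.

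In GENCODE 44 (GRCh38) E2F1 spans chr20:33675477-33686385 with 7 exon blocks, E2F2 chr1:23506438-23531233 with 7, E2F3 chr6:20401879-20493714 with 8 and E2F7 chr12:77021248-77065569 with 14. E2F4 lies at chr16:67192155-67198918, E2F5 at chr8:85177154-85217158, E2F6 at chr2:11444375-11466177 and E2F8 at chr11:19224063-19241620. TFDP1 lies at chr13:113584721-113641473 and TFDP2 at chr3:141944428-142149544. The submitters' processing notes name GRCh37/hg19, and the counts were joined to these positions by gene identifier.

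**Figure D1:**
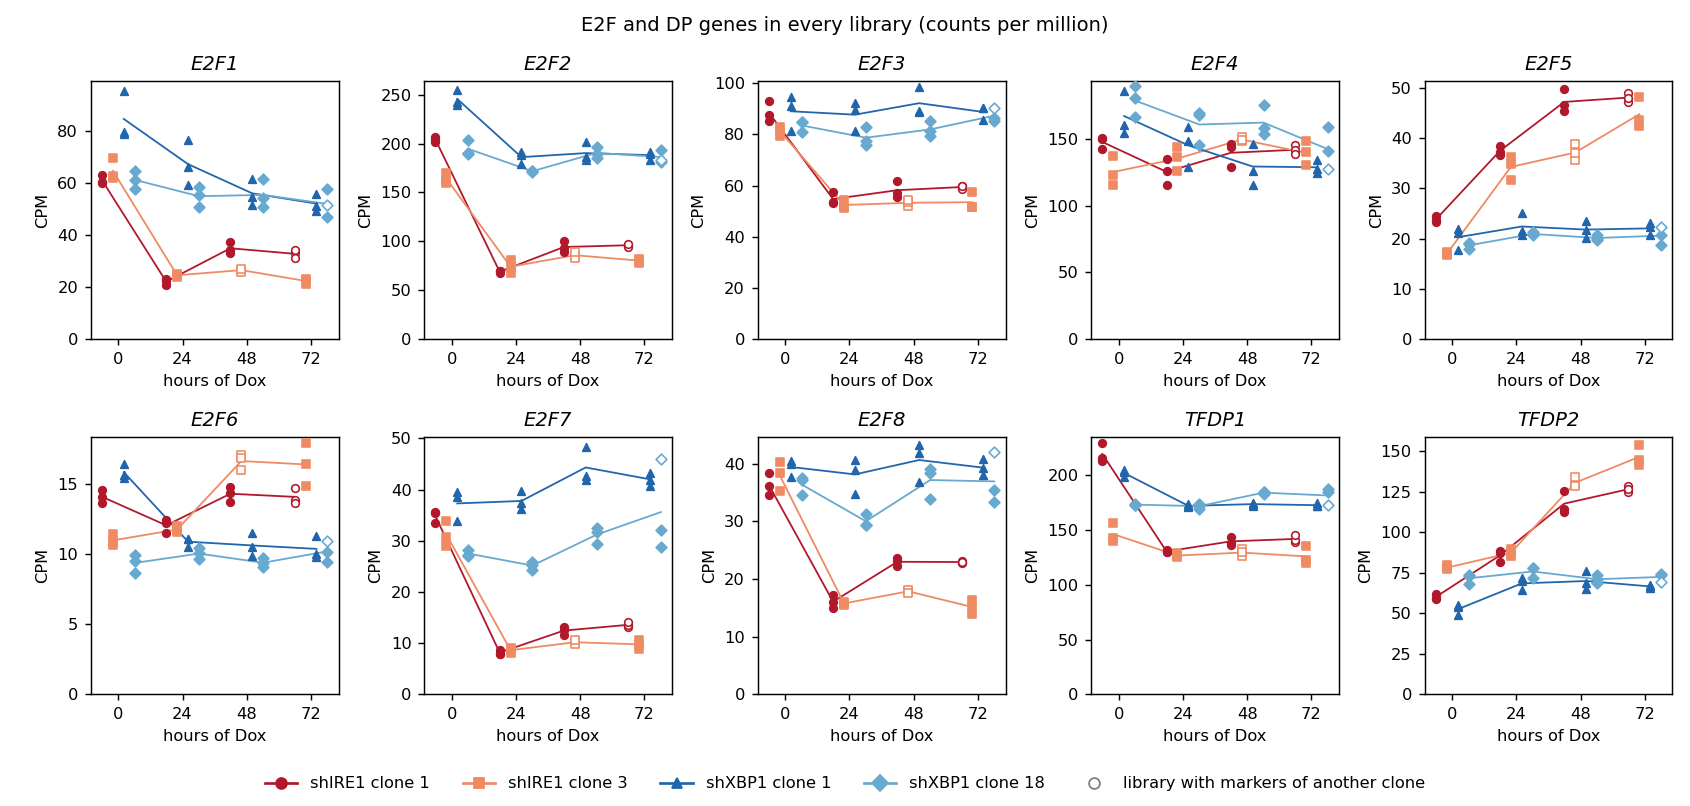
CPM of each E2F and DP gene (y axis, from 0, scaled per gene) against hours of Dox (x axis), 1 point for each of the 48 libraries, with a line through the mean of the 3 libraries of each clone and time. Open points are the 7 libraries with markers of another clone. E2F1, E2F2, E2F3, E2F7 and E2F8 drop by 24 h in both shIRE1 clones, while E2F5 and TFDP2 climb.

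The repressors of the E2F4 and E2F5 pair went apart from the activators and from each other. E2F5 rose in both shIRE1 clones, from 24.5, 23.7 and 23.2 CPM to 38.5, 37.3 and 36.7 CPM in clone 1 and from 16.8, 16.7 and 17.3 CPM to 36.2, 31.7 and 34.9 CPM in clone 3, with no overlap. The log2 fold changes were 0.65 ± 0.051 (adjusted p = 2.41e-09) and 1.01 ± 0.071 (adjusted p = 2.31e-08). By 48 h in clone 1 it stood at 45.4, 46.5 and 49.8 CPM, and by 72 h in clone 3 at 42.5, 43.6 and 48.3 CPM, 2.62-fold its 0 h level. Exons of E2F5 share 997 bases (16.6% of their length) with RBIS and 133 bases with a long non-coding RNA, both on the opposite strand, and whether the counting used strand is not given in the sources used here, so that part of the E2F5 count is uncertain.

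E2F4, the most abundant E2F per kilobase in all 4 clones at 0 h, changed little after shIRE1, with log2 fold changes from -0.24 to 0.25 over both clones and all times. It was at 143, 150.3 and 151 CPM at 0 h and 115, 126 and 135 CPM at 24 h in clone 1 (log2 fold change -0.24 ± 0.058, adjusted p = 0.00146), and at 137, 116 and 123 CPM and 126, 144 and 137 CPM in clone 3 (0.11 ± 0.070, adjusted p = 0.233, and called higher with library totals in place of TMM factors, at 0.22 with adjusted p = 0.0149). The 24 h ranges overlapped those of 0 h in clone 3 only. For E2F6 in clone 1 the log2 fold change at 24 h was -0.23 ± 0.068, a call that was lost when library totals took the place of TMM factors, as was that of E2F4 (adjusted p = 0.377 for E2F6 and 0.188 for E2F4). In clone 3 E2F6 was at 11.4, 10.8 and 10.6 CPM at 0 h, 11.5, 11.98 and 11.7 CPM at 24 h and 14.8, 17.9 and 16.4 CPM at 72 h, so that its rise passed at 72 h and not at 24 h (log2 fold change at 72 h 0.57 ± 0.082).

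The 2 DP genes moved in opposite directions in both shIRE1 clones. TFDP1, the main partner of the activating E2Fs, was at 215, 229.9 and 213 CPM at 0 h and 129.8, 131 and 130.4 CPM at 24 h in clone 1 (log2 fold change -0.75 ± 0.037). In clone 3, which began lower, it went from 156, 143 and 139.7 CPM to 129, 125 and 126 CPM (-0.21 ± 0.054, adjusted p = 0.00446), and this call was lost with library totals in place of TMM factors (adjusted p = 0.149 at 24 h and 0.262 at 72 h). At 24 h all 6 libraries of both clones lay between 125 and 131 CPM. TFDP2, the other DP gene, was at 62.03, 58.9 and 59.6 CPM at 0 h, 88.4, 87.5 and 81.7 CPM at 24 h and 113, 115 and 126 CPM at 48 h in clone 1, and at 79.7, 77.9 and 77.2 CPM, 87.6, 85.2 and 89.6 CPM and, at 72 h, 142, 145 and 154 CPM in clone 3. In clone 3 the 24 h value passed (0.15 ± 0.047, adjusted p = 0.0145) and was lost when replicate 2 or 3 at 0 h, or replicate 3 at 24 h, was left out (adjusted p = 0.0538, 0.0616 and 0.0679). At 48 h in clone 1 and 72 h in clone 3 the log2 fold changes of TFDP2 against 0 h were 0.97 ± 0.045 and 0.89 ± 0.047. The ratio of TFDP1 to TFDP2 per kilobase went from 11.6 ± 0.707 (SD, n = 3) at 0 h to 4.84 ± 0.212 at 24 h and 3.77 ± 0.115 at 48 h in shIRE1 clone 1, and from 5.94 ± 0.262 to 4.61 ± 0.114 at 24 h and 2.73 ± 0.0929 at 72 h in clone 3. In shXBP1 clone 1 it went from 12.2 ± 0.579 to 7.99 ± 0.428 at 24 h, and in clone 18 it stayed between 6.90 and 8.56 in all 12 libraries.

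Counted over the family at 24 h, 8 members were lower and 2 (E2F5 and TFDP2) higher in shIRE1 clone 1, where 29.0% of the 17154 genes tested were lower and 32.4% higher. In clone 3, 6 members were lower and 2 higher, beside 23.3% and 22.8% of 17204 genes. The median log2 fold change of the 10 members was -0.72 in clone 1 and -0.43 in clone 3, against 0.042 and 0.028 for all genes. With library totals in place of TMM factors the median of all genes moved up by 0.16 in clone 1 and 0.11 in clone 3, and E2F1, E2F2, E2F3, E2F7 and E2F8 remained lower and E2F5 and TFDP2 higher past the threshold in both.

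**Figure D2:**
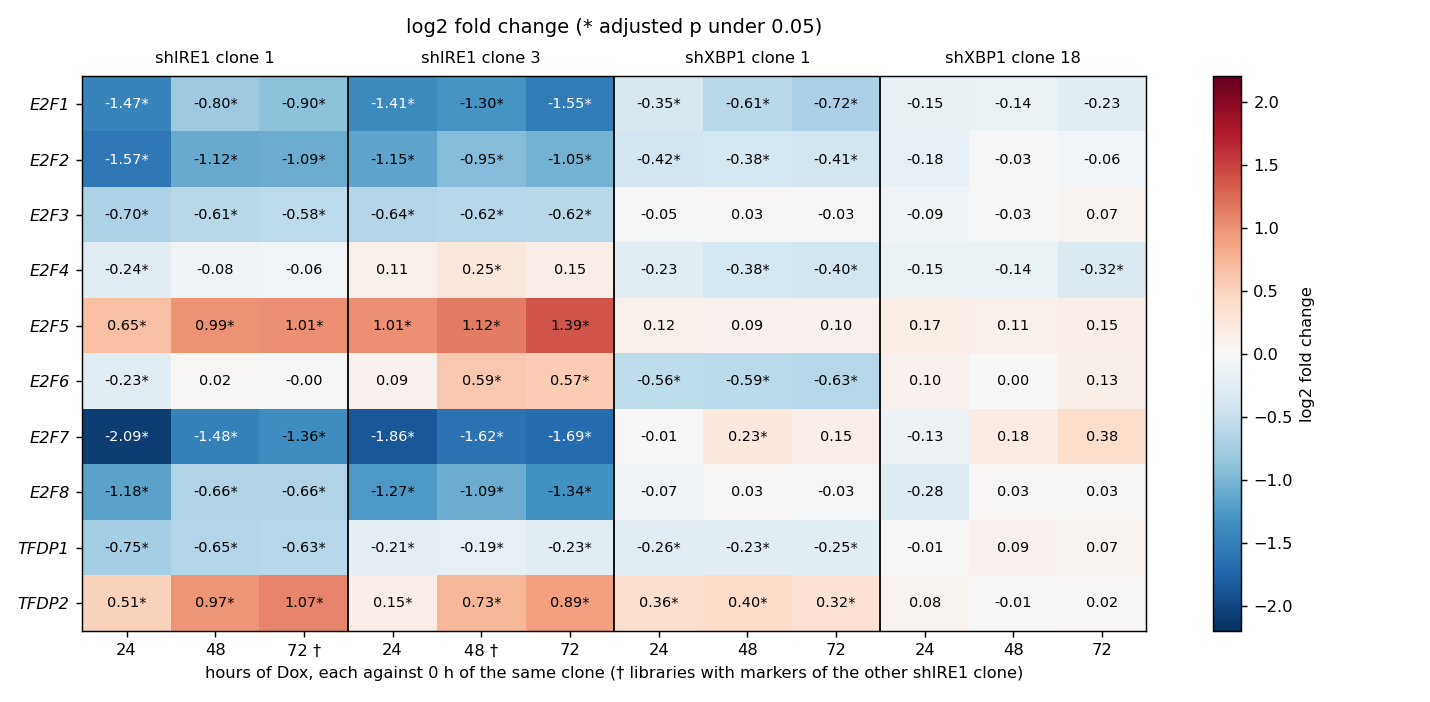
log2 fold change (colour and printed value) of each gene (rows) at 24, 48 and 72 h of Dox against 0 h of the same clone (columns), with an asterisk where the adjusted p was under 0.05 and a dagger on the groups with markers of the other shIRE1 clone. The shIRE1 columns are blue for E2F1, E2F2, E2F3, E2F7 and E2F8 (-0.58 to -2.09) and red for E2F5 and TFDP2, and the column block of shXBP1 clone 18 holds 1 asterisk.

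In shIRE1 clone 1 at 48 h, 6 members were lower and 2 higher, beside 31.5% and 33.9% of all genes. E2F4 and E2F6, lower at 24 h, did not pass at 48 h (-0.078 ± 0.058 and 0.023 ± 0.068). E2F1 was then at 37.5, 34.3 and 33.1 CPM, above its 24 h libraries and below those of 0 h (log2 fold change -0.80 ± 0.062). E2F7, at 12.6, 11.6 and 13.3 CPM, and E2F2, at 99.9, 89.1 and 93.4 CPM, likewise lay above their 24 h libraries, a difference that was not tested. In shIRE1 clone 3 at 72 h, 6 members were lower and 3 higher (E2F5, E2F6 and TFDP2), beside 30.5% and 29.7% of all genes. There E2F1 was at 22.6, 23.2 and 21.3 CPM, lower than each of its 24 h libraries (log2 fold change against 0 h -1.55 ± 0.065), and E2F7 was at 9.80, 8.85 and 10.7 CPM.

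The libraries labelled shIRE1 clone 1, 72 h held 6 members lower and 2 higher than clone 1 at 0 h, beside 31.1% and 32.5% of all genes, with E2F1 at 33.2, 34.2 and 31.1 CPM, E2F5 at 47.3, 49.1 and 47.95 CPM and E2F8 at 23.2, 22.7 and 23.02 CPM. Clone 1 at 48 h had shown 45.4, 46.5 and 49.8 CPM of E2F5 and 23.1, 22.3 and 23.6 CPM of E2F8. The libraries labelled shIRE1 clone 3, 48 h held 6 members lower and 4 higher than clone 3 at 0 h, beside 31.6% and 31.6%, with E2F1 at 26.7, 25.9 and 27.03 CPM, E2F5 at 35.6, 38.8 and 37.05 CPM and E2F6 at 17.02, 16.8 and 15.9 CPM. By these 18 markers, each of these comparisons sets a treated group against 0 h libraries that differ from it in clone markers as well as in Dox.

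From 24 h to 72 h, 9 of 10 members rose in shIRE1 clone 1 as labelled, all but E2F3, beside 29.1% of all genes called in either direction. E2F7 led, with a log2 fold change of 0.73 ± 0.074, followed by E2F1 with 0.57 ± 0.066. The call of E2F4 was lost with all 48 libraries, with limma and without any of 4 libraries (24 h replicate 1 or 2, 72 h replicate 1 or 2, adjusted p = 0.0587 to 0.158). That of E2F6 was lost with no filter and without 24 h replicate 2 or 72 h replicate 1 (0.0819 to 0.101), and that of TFDP1 with no filter and without 72 h replicate 3 (0.133 and 0.0932). E2F3 passed without 24 h replicate 1 (adjusted p = 0.0354). The 72 h side of this comparison is the group in doubt, and no value without it exists. In shIRE1 clone 3, 3 of 10 members rose from 24 h to 72 h, beside 33.5% of all genes called in either direction. This count is near that share. The 3 members were TFDP2 (0.74 ± 0.047), E2F6 (0.47 ± 0.080) and E2F5 (0.38 ± 0.067). E2F1 was at -0.14 ± 0.066 in clone 3, with an adjusted p of 0.119. In the shXBP1 clones 0 of 10 members passed between 24 and 72 h, beside 0.205% of all genes in clone 1 and 0.125% in clone 18 (edgeR). At an unadjusted p under 0.05 there were 1 and 4 members, and the deposited log2 table tested with limma gave 1 and 2 at the adjusted threshold and DESeq2 0 and 1.

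By share of the summed E2F mRNA per kilobase, the activators E2F1 to E2F3 went from 55.1 ± 0.602% (SD, n = 3) at 0 h to 38.9 ± 1.07% at 24 h in shIRE1 clone 1, and from 56.1 ± 0.796% to 38.9 ± 0.326% in clone 3. E2F4 and E2F5 together went the other way, from 32.2 ± 0.893% to 50.99 ± 1.70% in clone 1 and from 30.3 ± 1.72% to 51.5 ± 0.629% in clone 3. The repressor pair thus overtook the activators in each shIRE1 library at 24 h. In shXBP1 clone 1 the activators held 57.5 ± 0.328% at 0 h and 55.04 ± 0.219% at 24 h, and in clone 18 52.2 ± 0.663% and 51.98 ± 1.42%. These shares depend on the lengths used. With the length of the canonical transcript of each gene, E2F4 and E2F5 held 45.2 ± 0.938% and the activators 43.7 ± 0.641% in shIRE1 clone 1 before Dox, so that the pair was already ahead there, and 65.2 ± 1.36% and 26.9 ± 0.842% at 24 h. On the same scale clone 3 went from 42.8 ± 1.93% and 45.2 ± 1.04% to 65.4 ± 0.362% and 27.04 ± 0.183%. The sum of E2F1 to E2F8 itself went from 140.1 ± 0.436 to 80.7 ± 2.59 CPM per kilobase in clone 1 and from 124 ± 3.79 to 84.3 ± 3.23 in clone 3.

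**Figure D3:**
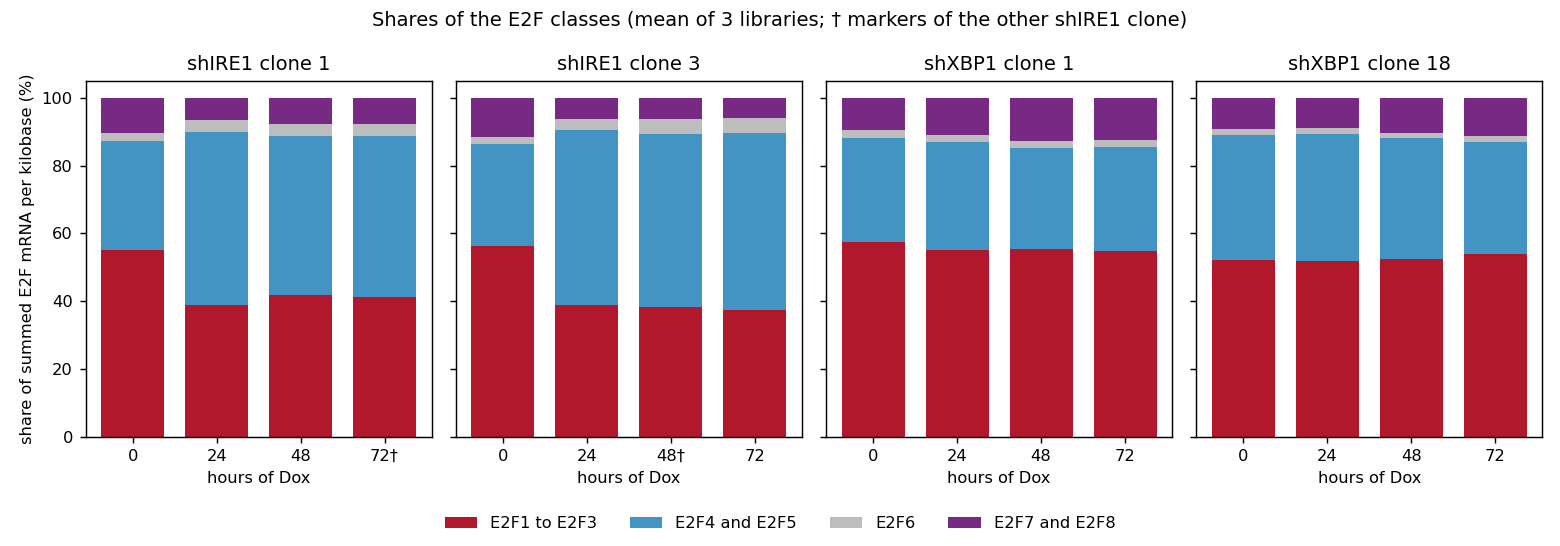
Share of the summed E2F1 to E2F8 mRNA per kilobase of joined exons (y axis, %) held by 4 classes at each time of Dox (x axis) in each clone, as means of 3 libraries stacked to the whole. In the shIRE1 panels the share of E2F1 to E2F3 drops from 55.1% and 56.1% to 38.9% by 24 h, and in the shXBP1 panels it stays between 52.0% and 57.5%.

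In the shXBP1 clones fewer members changed, and the clones differed. In shXBP1 clone 1 at 24 h, 4 members were lower (E2F1, E2F2, E2F6 and TFDP1), beside 12.8% of the 16603 genes tested, and 1, TFDP2, was higher, beside 13.9%. E2F6, the Polycomb-linked repressor, was at 15.4, 15.6 and 16.4 CPM at 0 h and 11.1, 10.48 and 11.1 CPM at 24 h (log2 fold change -0.56 ± 0.081), the largest in size of its 10 members. E2F2 went from 255, 243 and 239.6 CPM to 179, 191 and 188 CPM (-0.42 ± 0.053). E2F1 was at 95.7, 78.9 and 79.9 CPM at 0 h, 59.3, 76.6 and 66.3 CPM at 24 h and 55.8, 49.5 and 51.3 CPM at 72 h, with log2 fold changes of -0.35 ± 0.11 at 24 h (adjusted p = 0.0318) and -0.72 ± 0.11 at 72 h. The 24 h call of E2F1 was lost with library totals (adjusted p = 0.0608), with only the 6 libraries compared (0.0922), and when replicate 1 at 0 h (0.137), replicate 1 (0.128) or 3 (0.107) at 24 h, replicate 3 at 48 h (0.0546), or replicate 2 (0.0517) or 3 (0.0558) at 72 h was left out. At 48 h 5 members were lower and 2 higher, beside 15.5% and 16.6% of all genes, and at 72 h 5 were lower and 1 higher, beside 16.8% and 16.8%. The 48 h call of E2F7 (higher) was lost with no filter (adjusted p = 0.0728) and with only the 6 libraries compared (0.0811). Leaving out 0 h replicate 1, or 48 h replicate 2 or 3, also lost it (0.0524 to 0.125). E2F4, lower at both times, was lost without 0 h replicate 1 (0.0651 and 0.0550). Its 48 h call was lost without 48 h replicate 2 or 3 (0.0696 and 0.0508). Its 72 h call was lost without 72 h replicate 2 or 3 (0.0585 and 0.0519). E2F3, E2F5 and E2F8 did not pass at any of the 3 times in this clone.

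In shXBP1 clone 18, 0 members passed at 24 h, beside 1.30% of 16860 genes lower and 0.291% higher, and 0 at 48 h, beside 3.50% and 2.28%. At an unadjusted p under 0.05 there were 2 and 0 members, and at the adjusted threshold the deposited log2 table tested with limma gave 2 and 0 and DESeq2 gave 1 and 0. With the library in doubt of this clone left out of the fit, 2 members passed at 24 h, E2F2 (log2 fold change -0.18, adjusted p = 0.0323) and E2F8 (log2 fold change -0.28, adjusted p = 0.0367). At 72 h 1 member, E2F4, was lower (log2 fold change -0.32 ± 0.087), beside 5.55% lower and 4.41% higher. E2F4 was at 190.1, 166 and 181 CPM at 0 h and 159, 141 and 128 CPM at 72 h, where the last library is the one with the markers of shXBP1 clone 1, and 0 members passed without it. The call was also lost when any replicate at 0 h, replicate 3 at 24 h, replicate 1 at 48 h or replicate 2 at 72 h was left out (adjusted p = 0.0514 to 0.150). The library in doubt also held the highest E2F7 of its group (28.7, 32.2 and 45.98 CPM), near the 40.7 to 43.3 CPM of shXBP1 clone 1 at 72 h.

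The difference between the responses was tested directly in 1 fit of all 48 libraries, as the mean change of the shIRE1 clones minus that of the shXBP1 clones. Its errors come from the spread between replicate cultures, and the spread between clones of 1 shRNA is not in them. The tests at 24, 48 and 72 h thus concern these clones and not other clones of the same shRNAs. At 24 h 7 of 10 members differed, beside 38.7% of 18445 genes. The activators fell further after shIRE1, with differences of -1.19 ± 0.086 for E2F1, -1.07 ± 0.048 for E2F2 and -0.61 ± 0.056 for E2F3 on the log2 scale, and the atypical E2Fs too, with -1.92 ± 0.0998 for E2F7 and -1.06 ± 0.075 for E2F8. TFDP1 differed by -0.36 ± 0.041 and E2F5, in the other direction, by 0.68 ± 0.075. For E2F4 (0.11 ± 0.086), E2F6 (0.16 ± 0.073) and TFDP2 (0.10 ± 0.055) the difference did not pass. With library totals in place of TMM factors E2F6 (0.24, adjusted p = 0.00746) and TFDP2 (0.19, adjusted p = 0.00604) passed as well, and E2F6 also without clone 18, 0 h replicate 3 (adjusted p = 0.0474). With the 7 libraries in doubt left out, these 7 differences lay between -1.94 (E2F7) and 0.66 (E2F5), and again 7 members passed.

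At 48 h and at 72 h all 10 members differed as labelled, beside 56.9% and 55.3% of all genes. Without the libraries in doubt the 48 h response of shIRE1 rests on clone 1 and the 72 h response on clone 3. E2F7 then differed by -1.71 ± 0.089 at 48 h and -1.85 ± 0.092 at 72 h (as labelled -1.76 ± 0.099 and -1.79 ± 0.099), which leaves it the member with the most negative difference. E2F1 differed by -0.45 ± 0.11 at 48 h and -1.09 ± 0.12 at 72 h (as labelled -0.68 ± 0.086 and -0.75 ± 0.086). E2F4 no longer passed at 48 h (0.16 ± 0.11, adjusted p = 0.238) and did at 72 h (0.46 ± 0.11). TFDP2 differed by 0.76 ± 0.066 and 0.69 ± 0.068, and E2F5 by 0.87 ± 0.089 and 1.28 ± 0.093. E2F6 differed by 0.30 ± 0.086 and 0.83 ± 0.089. In each the shIRE1 response lay above that of shXBP1. For E2F6 at 48 h, shIRE1 clone 1 itself was at 0.0042 ± 0.072 against its 0 h (edgeR adjusted p = 0.964). Mean E2F6 went from 15.8 CPM at 0 h to 10.6 CPM at 48 h in shXBP1 clone 1, and from 9.35 to 9.37 CPM in clone 18.

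**Figure D4:**
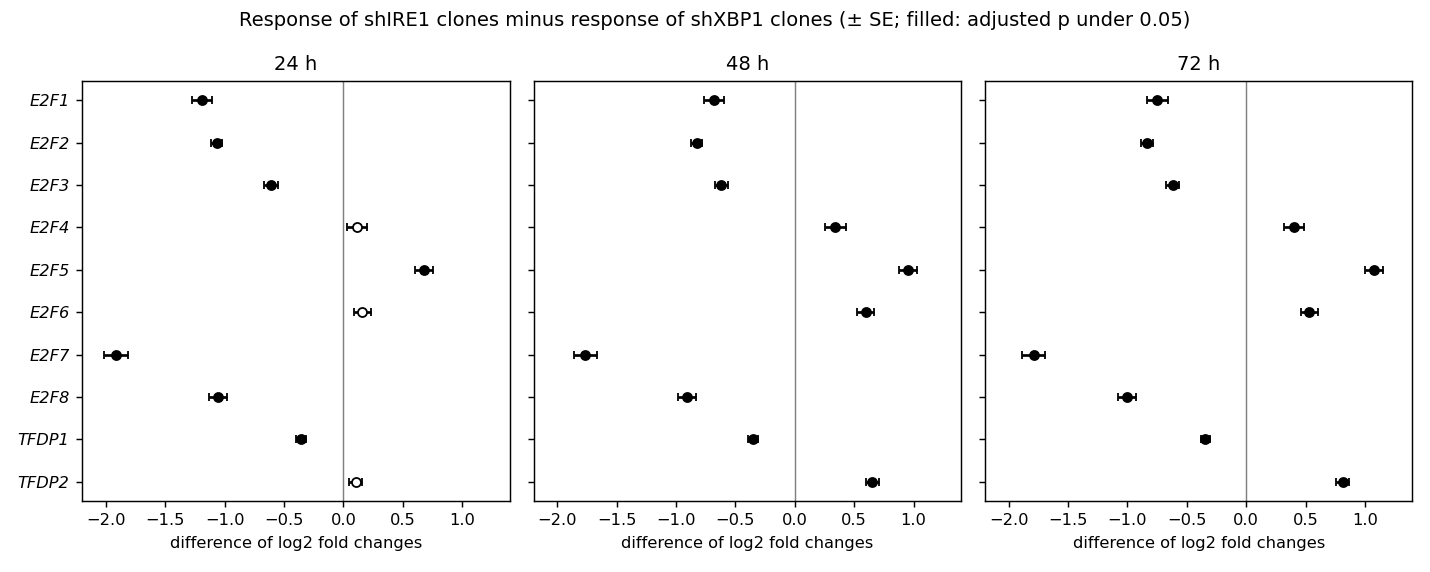
Difference between the mean log2 fold change of the shIRE1 clones and that of the shXBP1 clones (x axis, log2 scale) for each gene (y axis) at 24, 48 and 72 h, with groups as labelled. Bars are standard errors from the spread between replicate cultures, and filled points passed the threshold. At 24 h the points run from -1.92 for E2F7 to 0.68 for E2F5, and E2F4, E2F6 and TFDP2 are open.

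Within an shRNA the clones differed too. At 24 h 6 of 10 members responded differently in shIRE1 clone 1 and clone 3, beside 28.2% of all genes. The largest was TFDP1, which fell further in clone 1 (-0.54 ± 0.059), and the others were E2F2 (-0.42 ± 0.069), E2F5 (-0.36 ± 0.11), TFDP2 (0.35 ± 0.078), E2F4 (-0.35 ± 0.12) and E2F6 (-0.32 ± 0.10). The E2F4 call was lost with library totals and when any of 6 single libraries was left out (adjusted p = 0.0514 to 0.0861), and those of E2F5 and E2F6 with no filter on low counts (adjusted p = 0.0569 and 0.234). For E2F1 the difference was -0.068 ± 0.12, for E2F3 -0.058 ± 0.080, for E2F7 -0.23 ± 0.15 and for E2F8 0.091 ± 0.11, and these 4 did not pass. As labelled, 7 members differed at 48 h and 5 at 72 h, beside 30.8% and 27.5% of all genes, in comparisons that cannot be made without the libraries in doubt. Between the shXBP1 clones 4 members differed at 24 h, 5 at 48 h and 5 at 72 h, beside 17.1%, 24.1% and 24.6% of all genes. With no filter on low counts the 24 h count was 1, since E2F2, TFDP1 and TFDP2 no longer passed (adjusted p = 0.2197, 0.219 and 0.05301). E2F2 was also lost without clone 1, 0 h or 24 h replicate 1 (0.0521 and 0.0561). E2F6 was among them at each time, with a larger fall in clone 1 (difference -0.64 ± 0.10 at 24 h and, without the libraries in doubt, -0.72 ± 0.11 at 72 h).

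The proteins that hold E2F in check or release it were read from lists chosen with earlier results of these data known. Of 3 pocket proteins, RBL1, itself a target of E2F, fell in both shIRE1 clones at 24 h (log2 fold changes -0.998 and -1.002). RB1 was at 0.0026 in clone 1, where it did not pass, and fell by 0.17 in clone 3. RBL2, the pocket protein of resting cells, rose in shIRE1 clone 1 (0.79) and in shXBP1 clone 1 (0.70), and was at -0.027 in shIRE1 clone 3 and 0.021 in shXBP1 clone 18. Among the 7 genes of the MuvB core and its DREAM and mitotic partners, 5 were lower and 1, LIN52, higher in shIRE1 clone 1, and 6 lower in clone 3. Of all genes, 29.0% were lower and 32.4% higher in clone 1, and 23.3% and 22.8% in clone 3. MYBL2, the activating partner of MuvB, was at -1.89 and -1.07, FOXM1, its mitotic counterpart, at -1.78 and -1.14, LIN54, the DNA-binding subunit, at -0.79 and -0.97, and LIN9 at -0.87 and -0.84. The list median was -0.79 in clone 1 and -0.84 in clone 3, and 0.0047 in shXBP1 clone 18, where 0 of the 7 passed in edgeR and 2 had an unadjusted p under 0.05. In shXBP1 clone 1 it was -0.20, and MYBL2 (-0.62, adjusted p = 0.00119) and FOXM1 (-0.34, adjusted p = 0.000389) were lower there.

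Upstream of RB1, 7 of 10 G1 cyclins and kinases were lower at 24 h in shIRE1 clone 1 and 6 in clone 3, beside 29.0% and 23.3% of all genes, and 0 were higher. CCNE2, a cyclin of S-phase entry, was at -1.47 and -1.49, CCNA2 at -1.66 and -1.25, the CDK-activating phosphatase gene CDC25A at -1.51 and -0.89, and CDK2, the kinase of both cyclins, at -0.86 and -0.75. Of 7 CDK inhibitors 6 were tested, and CDKN1A (p21) alone was higher in both shIRE1 clones (0.65 and 1.11). Of all genes, 32.4% were higher in clone 1 and 22.8% in clone 3, and 1 of 6 is not above either share. In the shXBP1 clones CDKN1A was at -0.25 and -0.23 at 24 h. Of 6 genes for the turnover of E2F proteins, 4 were lower in shIRE1 clone 1 and 3 in clone 3, beside the same 29.0% and 23.3%, with 0 higher. Among them were CKS1B (-1.63 and -1.73), CCNF, the F-box cyclin (-1.36 and -0.75), and SKP2, the F-box protein for E2F1 (-0.57 and -0.74).

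Of 12 Polycomb (PRC1.6) partners of E2F6, 9 were lower in shIRE1 clone 1 (29.0% of all genes) and 4 lower (23.3%) and 1, MAX, higher (22.8%) in clone 3 at 24 h. In clone 3 these counts are near the share of all genes. CBX3, a heterochromatin protein, had log2 fold changes of -0.92 and -0.85, and PCGF6, which defines the complex, of -0.49 and -0.88. HDAC2 was at -0.54 and -0.58 and YAF2 at -0.46 and -0.59. Among apoptosis genes that E2F1 can activate, BBC3 and APAF1 were higher in clone 1 and BCL2L11 in clone 3, while PMAIP1 (NOXA) was lower in both, at -0.87 and -0.88. Counts over that list are not given.

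The E2F target genes fell as the activators did. All 55 listed genes of replication, nucleotide supply and chromatin assembly were lower at 24 h in shIRE1 clone 1 and 54 in clone 3, all but CCNE1, beside 29.0% and 23.3% of all genes, with medians of -1.46 and -1.12 against 0.042 and 0.028 for all genes. CDC6, the loader of the replicative helicase, was at -2.55 and -2.17, DSCC1, a subunit of a clamp loader, at -2.38 and -2.58, the mitotic kinase CDK1 at -1.98 and -2.14, and UHRF1, which carries DNA methylation through replication, at -2.58 and -1.53. In shXBP1 clone 1, 33 of 55 were lower, beside 12.8% of all genes, with a median of -0.26, and in clone 18, 2 of 55 (CDC6 and FEN1), beside 1.30%, with a median of -0.049. CCNE1, FEN1, LIN52, MAX, BBC3, APAF1 and BCL2L11 were named after their values were seen, as members of small counts. Between 24 and 72 h the list medians were 0.34 in shIRE1 clone 1 as labelled and -0.037 in clone 3. Tested against the shXBP1 response, the 24 h fall after shIRE1 was larger past the threshold for 55 of 55 genes. Of all 18445 genes tested, 38.7% were called in either direction. The median difference was -1.15 for the list, against 0.036 for all genes.

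**Figure D5:**
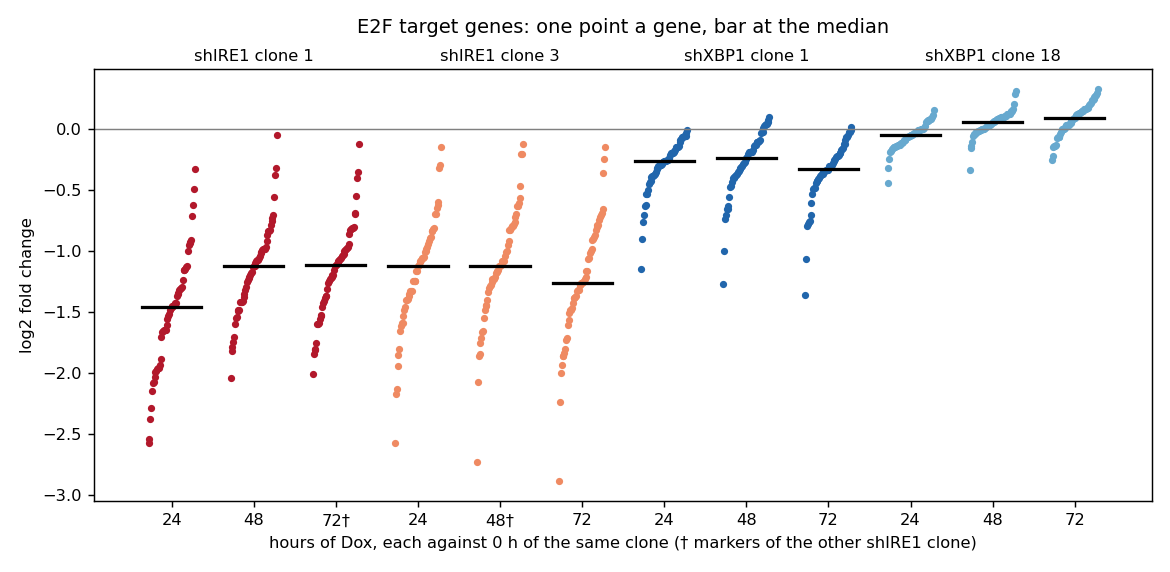
log2 fold change against 0 h of the same clone (y axis) of the 55 E2F target genes, 1 point a gene sorted from low to high, at each time of Dox (x axis) in each clone, with a bar at the median. At 24 h the bars stand at -1.46 and -1.12 in the shIRE1 clones and at -0.26 and -0.049 in the shXBP1 clones.

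Across the 16 group means, each clone centred on its own mean, E2F2 followed the mean of the E2F target genes most closely (Pearson r = 0.988), then E2F3 (0.973), E2F7 (0.959), E2F1 (0.950) and E2F8 (0.944). E2F5 (-0.882) and TFDP2 (-0.712) ran against it, TFDP1 stood at 0.891, E2F4 at 0.096 and E2F6 at -0.10. The group means share clones and 0 h libraries, so that these values describe the groups and are given with no test. Among the 12012 genes with a mean log2 CPM above 1, those most alike were ORC1, MCM3 and MCM7 (r = 0.995, 0.994 and 0.994) for E2F2, FEN1, PRPS2 and PSMC3IP (0.970, 0.967 and 0.967) for E2F1, POLQ, KIAA1524 and MMS22L (0.994, 0.993 and 0.993) for E2F3, WDHD1, ATAD2 and MELK (0.993, 0.992 and 0.991) for E2F7, and WDR76, RCC2 and FBXO5 (0.977, 0.974 and 0.974) for E2F8. The genes nearest to E2F5 were WDR59, SPRYD4 and OPA3 (0.981, 0.979 and 0.978), and those nearest to TFDP2 were LINC01748, UBE2Z and TPRG1L (0.987, 0.987 and 0.984). TFDP1 was matched best by C1orf174, STIP1 and CTCF (0.988, 0.988 and 0.986), E2F4 by PLA2G15, DUSP7 and UBA1 (0.953, 0.938 and 0.936) and E2F6 by FAM53C, VAMP1 and TSPOAP1 (0.954, 0.943 and 0.942).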

How the data were processed

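RNA of 48 cultures of AMO1 clones was sequenced from stranded mRNA libraries (single-end reads). The authors deposited a table of raw read counts per gene for each library, and a table of log2 CPM of 18401 genes, which equals edgeR log2 CPM with TMM factors and a prior count of 2. The submitters' processing notes name GSNAP 2013-10-10, R 4.1.3, edgeR 3.32.1, limma 3.46.0 and GRCh37/hg19. Whether counting used strand is not given in the sources used here, so that reads of a gene and of its antisense partner may be mixed.

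Groups, replicates and times came from the sample titles. The replicates are labelled biological triplicates in separate flasks, so that the p-values measure the spread between cultures of 1 clone. Counts were tested in R 4.3.3 with the edgeR 4.0.16 quasi-likelihood test (TMM factors, filterByExpr with a minimum count of 10 and a minimum total of 15), with Benjamini-Hochberg adjustment over all genes tested and a threshold of 0.05. Each time was compared with 0 h, and 72 h with 24 h, in a fit of the 12 libraries of a clone. Differences between responses and between clones at 0 h came from 1 fit of all 48 libraries. A log2 fold change stands with its standard error, log2 fold change divided by the square root of F. CPM per kilobase divides TMM-scaled CPM by the length of all exons in GENCODE 44, where 57532 of 58302 gene identifiers were found. Promoters on the chromosome of E2F5 were left out before the motif search. The motif counts and shares, also those of the E2F target genes, therefore hold no gene of that chromosome. Whether the promoter table has an entry for E2F5 is not shown by this search. The test scripts were tested on simulated data. Alternatives were limma 3.58.1 on the deposited log2 values, DESeq2 1.42.0, RLE factors, no filter, a replicate block, only the 6 libraries compared, each library left out, library totals without factors, and the 7 libraries with markers of another clone left out.

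The members and lists were chosen with earlier results of these data known. Named genes were the members, ERN1, XBP1 and IRF4, every gene of a list of 5 or fewer, of longer lists the 4 with the largest mean change over both shIRE1 clones at 24 h among those called in the same direction in both, and for each member the 3 genes with the highest correlation. A result of the list of apoptosis genes is not reported here.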

Additional observations from a re-analysis of the deposited data

Results flagged for a closer look

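The following responses differed between the shRNAs, or between 2 clones of 1 shRNA, by a test of the difference itself (edgeR quasi-likelihood test over all 48 libraries, adjusted p under 0.05). The spread in this test is that between replicate cultures of a clone, and not that between clones. Each value is a difference of log2 fold changes against 0 h of the same clone, with groups as labelled. All comparisons of shIRE1 at 48 and 72 h, and those of shXBP1 clone 18 at 72 h, rest in part on the 7 libraries with markers of another clone, and the comparisons of 1 clone share its 0 h libraries. No group had more than 3 libraries, so single libraries were not tested for standing apart. With no filter on low counts, E2F5 and E2F6 between the shIRE1 clones and E2F2, TFDP1 and TFDP2 between the shXBP1 clones no longer passed at 24 h.

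E2F1 differed between shIRE1 and shXBP1 (shIRE1 minus shXBP1) by -1.19 at 24 h, -0.68 at 48 h and -0.75 at 72 h. E2F1 differed between the shIRE1 clones (clone 1 minus clone 3) by 0.48 at 48 h and 0.64 at 72 h. E2F1 differed between the shXBP1 clones (clone 1 minus clone 18) by -0.45 at 48 h and -0.47 at 72 h. E2F2 differed between shIRE1 and shXBP1 (shIRE1 minus shXBP1) by -1.07 at 24 h, -0.83 at 48 h and -0.84 at 72 h. E2F2 differed between the shIRE1 clones (clone 1 minus clone 3) by -0.42 at 24 h and -0.18 at 48 h. E2F2 differed between the shXBP1 clones (clone 1 minus clone 18) by -0.22 at 24 h, -0.34 at 48 h and -0.32 at 72 h. E2F3 differed between shIRE1 and shXBP1 (shIRE1 minus shXBP1) by -0.61 at 24 h, -0.62 at 48 h and -0.62 at 72 h.

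E2F4 differed between shIRE1 and shXBP1 (shIRE1 minus shXBP1) by 0.34 at 48 h and 0.40 at 72 h. E2F4 differed between the shIRE1 clones (clone 1 minus clone 3) by -0.35 at 24 h and -0.34 at 48 h. E2F5 differed between shIRE1 and shXBP1 (shIRE1 minus shXBP1) by 0.68 at 24 h, 0.95 at 48 h and 1.08 at 72 h. E2F5 differed between the shIRE1 clones (clone 1 minus clone 3) by -0.36 at 24 h and -0.39 at 72 h. E2F6 differed between shIRE1 and shXBP1 (shIRE1 minus shXBP1) by 0.60 at 48 h and 0.53 at 72 h. E2F6 differed between the shIRE1 clones (clone 1 minus clone 3) by -0.32 at 24 h, -0.58 at 48 h and -0.58 at 72 h. E2F6 differed between the shXBP1 clones (clone 1 minus clone 18) by -0.64 at 24 h, -0.58 at 48 h and -0.73 at 72 h.

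E2F7 differed between shIRE1 and shXBP1 (shIRE1 minus shXBP1) by -1.92 at 24 h, -1.76 at 48 h and -1.79 at 72 h. E2F8 differed between shIRE1 and shXBP1 (shIRE1 minus shXBP1) by -1.06 at 24 h, -0.91 at 48 h and -1.003 at 72 h. E2F8 differed between the shIRE1 clones (clone 1 minus clone 3) by 0.43 at 48 h and 0.67 at 72 h.

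TFDP1 differed between shIRE1 and shXBP1 (shIRE1 minus shXBP1) by -0.36 at 24 h, -0.35 at 48 h and -0.34 at 72 h. TFDP1 differed between the shIRE1 clones (clone 1 minus clone 3) by -0.54 at 24 h, -0.48 at 48 h and -0.41 at 72 h. TFDP1 differed between the shXBP1 clones (clone 1 minus clone 18) by -0.22 at 24 h, -0.31 at 48 h and -0.29 at 72 h. TFDP2 differed between shIRE1 and shXBP1 (shIRE1 minus shXBP1) by 0.65 at 48 h and 0.81 at 72 h. TFDP2 differed between the shIRE1 clones (clone 1 minus clone 3) by 0.35 at 24 h and 0.23 at 48 h. TFDP2 differed between the shXBP1 clones (clone 1 minus clone 18) by 0.30 at 24 h, 0.43 at 48 h and 0.33 at 72 h.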

How the results depend on the processing

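Of 5650 member values recomputed under the alternatives, 5512 kept their side of the threshold, 89 lost the call and 49 gained one. Among the 5512, 110 values that were not called changed sign, and 0 called values changed direction. Of 565 counts of members called, 536 stayed within 1.5 times, and the cause of the other moves was not tested. In shXBP1 clone 18 at 24 h the count of 0 became 2 with all 48 libraries in 1 fit, with limma on the deposited log2 table and with only the 6 libraries compared, 1 with DESeq2, and 0 to 2 when 1 library was left out. At 72 h in that clone the count of 1 became 3 with all 48 libraries and with limma, 2 with DESeq2 and with no filter, 0 with only 6 libraries and with the replicate block, and 0 to 3 when 1 library was left out. From 24 to 72 h the count of 0 became 1 with all 48 libraries and with limma in shXBP1 clone 1, and in clone 18 it became 2 in both, 1 with DESeq2 and with no filter, and 0 to 2 when 1 library was left out. Between the shIRE1 clones at 48 h the count of 7 ran from 4 to 7 when 1 library was left out (4 without clone 1, 0 h replicate 2 or 48 h replicate 3), and between the shXBP1 clones at 24 h the count of 4 became 1 with no filter. Most same-numbered libraries did not deviate together (5 of 72 pairs correlated above 0.1, median -0.0096). The highest correlations (0.25, 0.22 and 0.16) and the lowest (-0.41) were all in shXBP1 clone 1. With the replicate block 267 of 270 member values kept their call. E2F1 at 24 h and E2F7 at 48 h in shXBP1 clone 1 and E2F4 at 72 h in clone 18 lost it (adjusted p = 0.0575, 0.0584 and 0.0603).

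Over all genes, counts in the shXBP1 clones moved most. Clone 18 had 268 calls at 24 h (838, 950, 559, 562 and 874 with all 48 libraries, limma, DESeq2, no filter and 6 libraries), 974 at 48 h (2013, 2264 and 2983 with all 48, limma and 6 libraries) and 1680 at 72 h (3345, 3502, 2712 and 444 with all 48, limma, no filter and 6 libraries). From 24 to 72 h it had 21 (1128, 1091, 361, 1205 and 0 with all 48, limma, DESeq2, no filter and 6 libraries), and clone 1 had 34 (215, 219, 163, 89 and 14). With 6 libraries the 4430 calls of clone 1 at 24 h became 2086. The replicate block gave 10 and 17 from 24 to 72 h. With library totals the share of calls that were higher went from 49.4 to 52.8% in the shIRE1 clones against 0 h to 64.0 to 69.1%, from 49.9 to 52.1% in shXBP1 clone 1 to 66.9 to 69.4%, from 18.3, 39.4 and 44.3% in clone 18 to 36.6, 59.2 and 69.1%, and from 49.2 to 63.9% for shIRE1 minus shXBP1 at 24 h. Library totals, canonical lengths and leaving out the doubted libraries were alternatives chosen after seeing the data.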
